A study of Mus musculus with 7 samples.

Results

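Cathepsins are the proteases of the endolysosome, and their transcripts were followed here in differentiating mouse muscle cells depleted of the long non-coding RNA lnc-SMaRT. The set held 10 listed genes (Ctsa, Ctsb, Ctsd, Ctsf, Ctsh, Ctsk, Ctsl, Ctso, Ctsw and Ctsz), and its members were those whose symbol stood in a row of the RPKM table. Of these, 8 had a row among 11642, and 7 of the 8 rows held no other gene. Ctsh and Ctsk were not analysed here. The set was selected on measured values, because Ctsw had been chosen by its difference between the groups in these same libraries, so the members' differences are given as a description, with no test.

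The cells were C2C12, an established line of mouse myoblasts, transfected with small interfering RNA (siRNA) and collected on day 2 after the switch to differentiation medium. Control cells received a scramble siRNA (si-SCR, n = 2) and depleted cells received siRNA #1 against lnc-SMaRT (si-SMaRT, n = 2). Total RNA of separately treated populations of the line was sequenced, so the replicates measure the spread within 1 line and 1 siRNA. The study also sequenced RNA recovered with biotinylated probes against lnc-SMaRT or, as a control, against LacZ, with 1 library each.

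Cathepsins are made as inactive precursors in the endoplasmic reticulum, tagged with mannose 6-phosphate, carried to endosomes by mannose 6-phosphate receptors and activated there by acid and by other proteases. Cystatins and stefins inhibit the cysteine members. In skeletal muscle these enzymes complete the breakdown of proteins and organelles delivered by endocytosis and autophagy, and cathepsin L is known as a transcript that rises in wasting muscle. Most members are cysteine proteases related to papain (Ctsb, Ctsf, Ctsh, Ctsk, Ctsl, Ctso, Ctsw and Ctsz), whereas Ctsd is an aspartic protease and Ctsa is a serine carboxypeptidase.

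The effective library sizes ranged from 11291255 to 14312935 reads. Lnc-SMaRT, the target of the siRNA, had a mean RPKM (reads scaled to gene length and library size) of 17.5 ± 2.26 in the controls and 3.27 ± 0.550 after depletion (SD, n = 2 each). The C2C12 identity was checked on 12 muscle markers, which all had a row. Their summed RPKM was 14001 to 14108 in si-SCR and 6571 to 9297 in si-SMaRT, and 11 of the 12 had a log2 fold change below 0. None of the 12 passed the test in limma, although 7 had an unadjusted p under 0.05. With voom, 1 of the 4 whose reads were recovered passed, and with the GC trend removed 4 of 12 passed, all lower in depleted cells. Among all rows, 56 of 11086 passed in limma, 106 of 11009 with voom and 651 of 10933 with the GC trend removed. The median log2 fold change of the 12 markers was -0.75. It was -0.97 without si-SMaRT replicate 1 and -0.67 without si-SMaRT replicate 2. The part of these marker levels in the cathepsin values was not tested. Because the samples are bulk RNA, fewer cells of a type and less RNA per cell cannot be told apart. The si-SMaRT libraries also stood apart from each other along the GC content of genes, which is described with the member values below. By the read numbers of the paper, si-SMaRT 1 lost a far larger part of its read pairs to the rRNA and tRNA filter than the other libraries. The part of this loss in the differences between the depleted libraries was not tested.

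Ctsl had the highest RPKM among the listed cathepsins with a row. Cathepsin L is an endopeptidase that degrades proteins delivered to the lysosome. Its RPKM was 322 and 257 in the control libraries si-SCR 1 and 2, and 216 and 225 in the depleted libraries si-SMaRT 1 and 2. The values of other genes are given in this order of libraries. Both depleted libraries lay below both controls. The group means were 289 ± 45.8 and 220.4 ± 6.98 (SD, n = 2 each). In the current annotation Ctsl shares part of its locus with the pseudogene Gm49230 on its own strand, so its level could include reads of that copy.

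Ctsb and the row of Ctsd followed, with RPKM values at about the same level. Cathepsin B acts both as an endopeptidase and as a dipeptide-removing carboxypeptidase. Its RPKM was 106 and 95.5 in the controls and 95.7 and 82.9 after depletion, and the groups overlapped. Cathepsin D, the main aspartic protease of the lysosome, was counted in 1 row with its neighbour Ifitm10, and the parts of the 2 genes cannot be told apart. That row had RPKM values of 101 and 96.0 in the controls, 84.0 in si-SMaRT 1 and 54.6 in its replicate. Both depleted libraries lay below both controls, but the distance between the depleted libraries exceeded that between si-SMaRT 1 and the controls.

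Ctsz and Ctsa formed the middle of the order. Cathepsin Z, also called cathepsin X, trims single residues from the carboxyl end of proteins. The control values were 56.3 and 61.7 RPKM and the depleted values 66.7 and 34.8, so that the depleted libraries held both the highest and the lowest value. Cathepsin A is the carboxypeptidase that holds beta-galactosidase (Glb1) and neuraminidase 1 (Neu1) in a stable lysosomal complex. It had an RPKM of 27.8 and 30.1 in the controls and of 27.2 and 20.5 in the depleted libraries. The si-SMaRT 1 value lay just below the lower control, and si-SMaRT 2 lay further down.

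Ctsf and Ctso were rare transcripts. Both encode papain-like cysteine proteases that are expressed in many tissues. Ctsf had control values of 2.76 and 2.36 RPKM and depleted values of 3.05 and 1.59, again with both extremes in the depleted libraries. Ctso had control values of 2.22 and 1.44 RPKM and depleted values of 2.23 and 2.69. It was the 1 member whose depleted libraries both lay above both controls, and si-SMaRT 1 exceeded si-SCR 1 by less than the distance between the controls.

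Ctsw stood apart from the other members in size of difference. Cathepsin W is a papain-like cysteine protease best known from natural killer cells and cytotoxic T cells. Its RPKM was 4.30 and 3.22 in the control libraries, against 0.647 and 0.907 in the depleted ones. The groups were far apart, with a mean of 3.76 ± 0.765 (SD, n = 2) in control cells and 0.777 ± 0.184 (SD, n = 2) in depleted cells, 4.83-fold lower. The gene lies on the minus strand of chromosome 19 of GRCm38, from 5465043 to 5468507, and overlaps Fibp on the opposite strand at its end, where the strand-specific counting keeps the reads of both genes separate.

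The Ctsw values rested on few reads. At least 67 and 56 reads lay behind the si-SCR values, and at least 9 and 16 behind the si-SMaRT values. These are lower limits, since a multiple of all 4 numbers would give the same RPKM values for a longer gene model. With these reads, the 95% exact Poisson interval of the RPKM was 3.33 to 5.46 and 2.43 to 4.18 in the controls. It was 0.296 to 1.23 and 0.519 to 1.47 after depletion. The intervals cover counting error only. Because Ctsw was chosen by its difference between these groups, the distance between the intervals is not support for that difference.

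**Figure D1:**
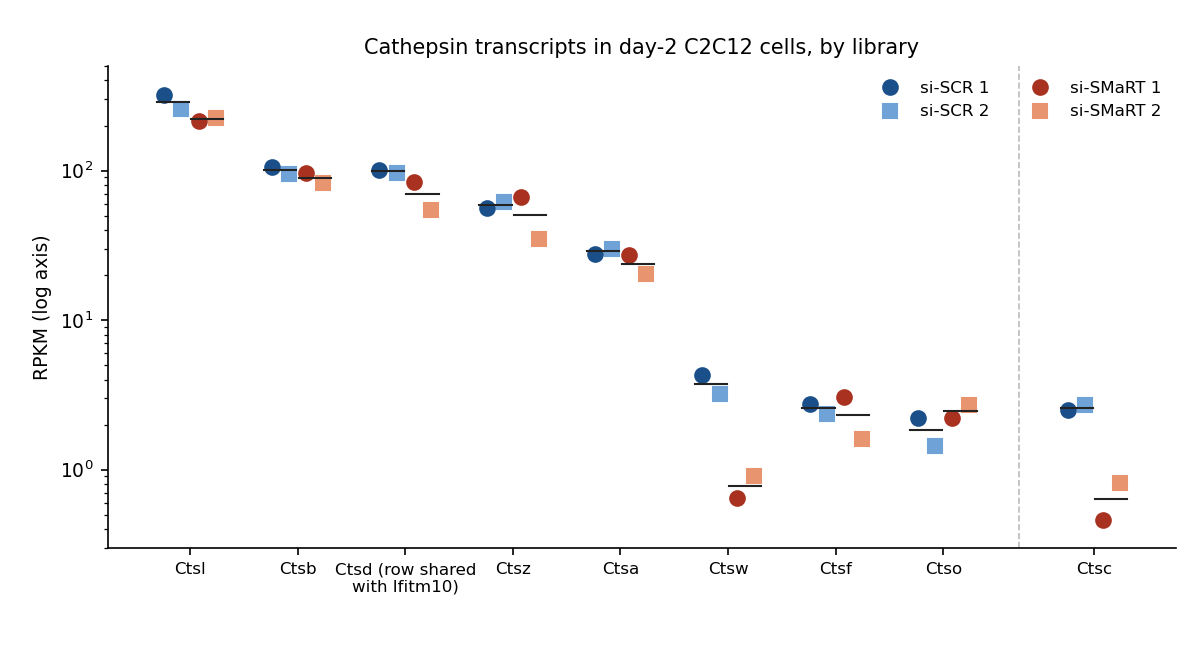
RPKM of the 8 listed cathepsins with a row, and of Ctsc right of the dashed line, in the 2 si-SCR (blue) and 2 si-SMaRT (red and orange) libraries on a log axis; circles are replicate 1, squares replicate 2 and bars the mean of each group. Ctsl, Ctsb and the row of Ctsd led the order in both groups, and Ctsw averaged 3.76 in si-SCR and 0.777 in si-SMaRT.

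RPKM is per length, so the levels can be set side by side, except that of the row of Ctsd. Its RPKM was divided by a length for both its genes, at least 7145 bases, against 2351 bases of Ctsd exons in the current annotation. The place of this row is given below, and the level of Ctsd alone is not known. In si-SCR the order by mean was Ctsl, Ctsb, the row of Ctsd, Ctsz, Ctsa, Ctsw, Ctsf and Ctso. The values of neighbours did not overlap except for Ctsb and Ctsd, whose means had a ratio of 1.02. Ctsl exceeded Ctsb 2.87-fold, and the widest step was that from Ctsa to Ctsw, 7.70-fold. In si-SMaRT the first 5 kept their places, while Ctsw came last of 8 and lay 30.7-fold below Ctsa. There, the values of Ctsb and Ctsd, of Ctsd and Ctsz, and of Ctsf and Ctso overlapped.

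Among all rows, the family spanned most of the range. The mean of Ctsl in si-SCR exceeded that of 98.4% of rows, that of Ctsa 83.7%, that of Ctsw 34.4% and that of Ctso 20.2%. The summed RPKM of the 8 rows was 622 and 547 in the controls and 495 and 423 after depletion. Ctsl alone made up 51.7%, 47.0%, 43.5% and 53.2% of these sums, in the same order. Ctsw made up at most 0.690% of them, so its difference hardly entered the sum.

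The difference of each member was taken from limma on log2(RPKM + 0.1), fitted across 11086 rows with a mean RPKM of at least 0.5. On this scale a change of low genes is understated. The log2 fold change of Ctsw was -2.14 (SE 0.32, 95% interval -2.82 to -1.46). It lay between -2.35 and -1.92 when each library was left out in turn, and it was -1.41 with a pseudocount of 1. Of the 11086 rows, 20 had a lower log2 fold change than Ctsw.

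The other members differed much less. The log2 fold change was -0.54 (95% interval -1.13 to 0.05) for the row of Ctsd and -0.38 (-0.96 to 0.19) for Ctsl. It was -0.29 for both Ctsz (-0.93 to 0.36) and Ctsa (-0.86 to 0.28). It was -0.20 (-0.91 to 0.50) for Ctsf and -0.18 (-0.73 to 0.38) for Ctsb. Ctso had the 1 positive value, 0.43 (SE 0.32). All 7 intervals included 0. Since Ctsw was chosen by this contrast, nothing is read from the place of its interval beside theirs.

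Adjusted p-values under 0.05 were reached by 56 of the 11086 rows, which is 0.505%. The row of Ctsw was 1 of them, but it had been chosen by this contrast, so nothing is read from its place there. Both si-SMaRT values lay below both si-SCR values in 20.4% of all tested rows and in 4 of the 8 members (Ctsl, the row of Ctsd, Ctsa and Ctsw). Both lay above in 20.2% of all tested rows and in 1 member (Ctso), and 3 members overlapped. The median log2 fold change was -0.29 over the 8 members, -0.29 over the 7 without Ctsw and 0.02 over all tested rows.

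**Figure D2:**
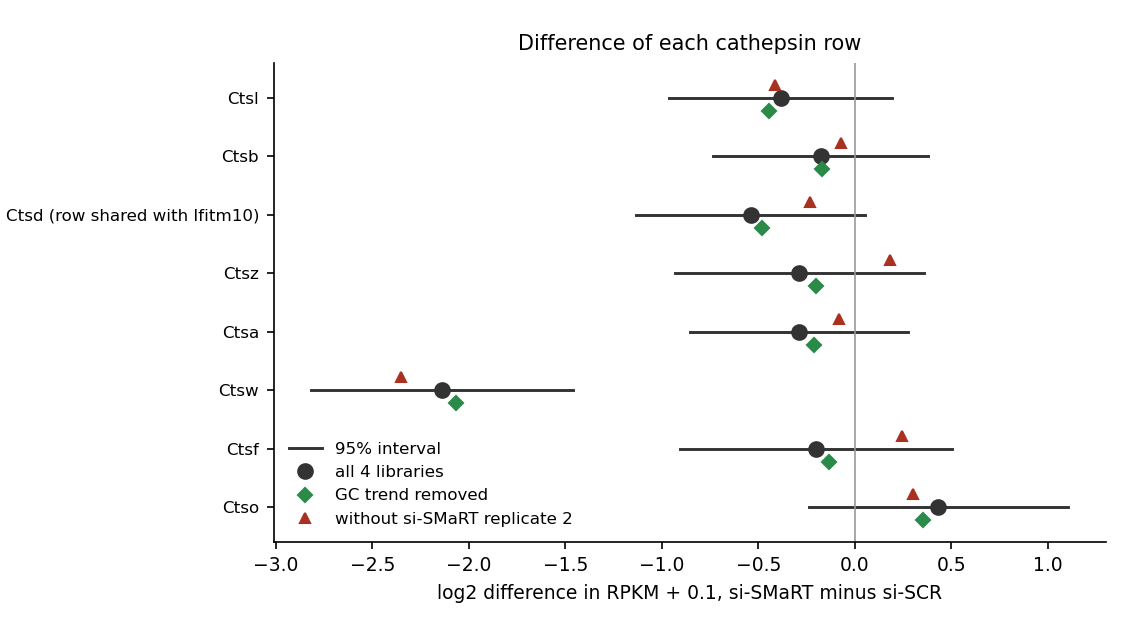
Log2 difference of RPKM + 0.1 between si-SMaRT and si-SCR for the 8 cathepsin rows; black circles with lines are the estimate from all 4 libraries with its 95% interval, green diamonds the estimate with the GC trend removed and red triangles the estimate without si-SMaRT replicate 2. Ctsw lay between -2.35 and -2.07 by these 3 estimates, while Ctsz and Ctsf moved from below to above 0 without si-SMaRT replicate 2.

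How the members varied between replicates followed their base composition. The GC content of the exons was 41.5% for Ctso, 44.2% for Ctsl, 50.7% for Ctsb, 54.1% for Ctsf, 54.7% for Ctsw, 55.3% for Ctsa, 55.6% for Ctsd and 57.3% for Ctsz. The log2 difference of si-SMaRT 2 from si-SMaRT 1 was -0.94 for Ctsz, -0.90 for Ctsf, -0.62 for the row of Ctsd, -0.41 for Ctsa and -0.21 for Ctsb. It was higher in si-SMaRT 2 by 0.06 for Ctsl and by 0.26 for Ctso, the members with the lowest GC content. Ctsw was the exception, higher by 0.43 in si-SMaRT 2 at a GC content over 50%.

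The same relation ran through the whole table. Spearman's rho between the replicate difference and GC content was -0.845 over 10933 rows for the si-SMaRT pair, and -0.643 over the 8 members or -0.893 over the 7 without Ctsw. For the si-SCR pair it was 0.355 over all rows and 0.810 over the 8 members. These are descriptions across genes, which share the same 4 libraries and are not independent replicates. With the trend of each library on GC content removed, the si-SMaRT replicate difference of Ctsz changed from -0.94 to -0.31 and that of Ctsf from -0.90 to -0.50, whereas that of Ctsw widened from 0.43 to 0.88.

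The differences between the groups moved little with this removal. The log2 fold change with the GC trend removed was -2.07 for Ctsw, -0.48 for the row of Ctsd, -0.44 for Ctsl, -0.21 for Ctsa, -0.20 for Ctsz, -0.17 for Ctsb, -0.14 for Ctsf and 0.35 for Ctso. Leaving out a si-SMaRT library moved them more. Without si-SMaRT replicate 1 the log2 fold change was -0.85 for the row of Ctsd, -0.76 for Ctsz and -0.65 for Ctsf. Without si-SMaRT replicate 2 the same genes moved the other way. Ctsz then had 0.18 and Ctsf 0.25, above 0, while the other 6 kept their direction, with -0.23 for the row of Ctsd and -0.08 for Ctsa.

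**Figure D3:**
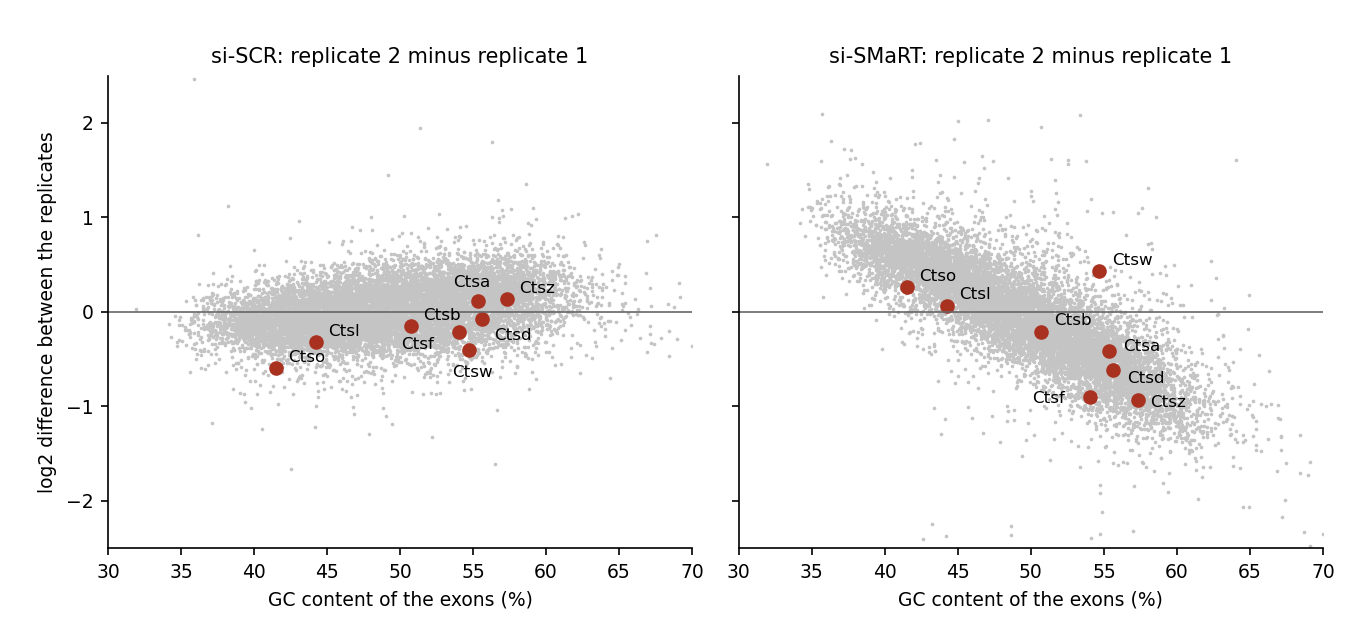
Log2 difference between replicate 2 and replicate 1 (RPKM + 0.1) against the GC content of the exons in percent, for the si-SCR pair (left) and the si-SMaRT pair (right); grey points are the 10933 tested rows with a GC content and red points the 8 cathepsin rows. In the si-SMaRT pair the rows slope down (rho -0.845) and Ctsw lies above 0, at 0.43, unlike the other 5 members with a GC content over 50%.

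Of the 13 further cathepsin genes in the list used here, 1 had a row, and the other 12 were not analysed. This was Ctsc, which encodes cathepsin C or dipeptidyl peptidase 1, a papain-like enzyme that activates the granule serine proteases of immune cells. Its RPKM was 2.51 and 2.70 in the controls, 0.458 in si-SMaRT 1 and 0.819 in its replicate. The groups were far apart, with means of 2.60 ± 0.134 and 0.638 ± 0.255 (SD, n = 2 each), 4.07-fold lower in depleted cells. The log2 fold change was -1.91 (SE 0.34, Benjamini-Hochberg adjusted p = 0.0160 in limma). With all 4 libraries the adjusted p stayed under 0.05 in every setting, and was highest with quantile normalization (0.0467 in limma). The call was lost when either control was left out, where only the si-SMaRT pair gave a spread within a group. The log2 fold change was then -1.96 without si-SCR replicate 1 and -1.86 without si-SCR replicate 2. Over the other 12 settings the log2 fold change ranged from -2.27 to -1.14.

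Ctsc was also among the rows whose pattern was nearest to that of Ctsw. Likeness was measured as the Euclidean distance between row-centred log2(RPKM + 0.1) values over the 4 libraries, where 0 means the same pattern. Lnc-SMaRT itself was nearest of all tested rows, at 0.277, and Ctsc came second at 0.470. Mfap4, a microfibril protein, followed at 0.494, Crabp2, a carrier of retinoic acid, at 0.536, and Rhbdl2, a rhomboid protease, at 0.539. With 4 libraries in 2 groups, a small distance says mainly that a row had a difference of a like size between the groups.

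Ctsw and Ctsc are known from immune cells, so markers of such cells were looked up. None of 12 markers of cytotoxic lymphocytes (among them Ptprc, Cd3e, Nkg7, Gzmb and Prf1) and none of 7 osteoclast markers had a row. Of 11 symbols of macrophage markers, among which Emr1 and Adgre1 name the same gene, Cd68 and Itgam had a row. Cd68 had control values of 1.13 and 0.788 RPKM and depleted values of 1.13 and 0.889, which overlapped. Itgam had 0.496 and 0.555 RPKM in the controls against 0.208 and 0.252 after depletion. The depleted values of Itgam lay below both controls, as those of Ctsw and Ctsc did, and its mean was too low for the test. The part of such cells in the values of Ctsw and Ctsc was not tested.

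The siRNA was compared with the cathepsin transcripts because all depleted cells received the same duplex. Its strands are shown with bases 2 to 8, the seed, in capitals. The study lists the passenger strand, which has the sequence of lnc-SMaRT from base 878 to 898 of its transcript of 1409 bases, and the guide strand shown is the reverse complement of all its bases.
siRNA #1, passenger strand: gAGAAGCAgaacaaacagaua
siRNA #1, guide strand: uAUCUGUUuguucugcuucuc

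A site for the guide seed (AACAGAU) stood in transcripts of 26.4% of the 10935 protein-coding genes of the table. Among the cathepsins it stood in Ctsd, Ctsl and Ctso, and in no transcript of Ctsw or Ctsc. A site for the passenger seed (UGCUUCU) stood in 38.7% of the genes, among them Ctsa and both coding transcripts of Ctsw. In Ctsw this site was part of the longest stretch able to pair with the passenger strand by Watson-Crick pairs, which had 11 bases and is shown because Ctsw had the lowest log2 fold change of the family.
Ctsw, bases 1156 to 1166 of 1241, GRCm38 chr19:5465315-5465325, minus strand, 3′ untranslated region: uucugcuucuc

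Stretches were sought only in the longest coding transcript of each gene, whereas seed sites were sought in all coding transcripts. A stretch of at least 11 bases opposite the passenger strand was found in 2.08% of the genes. In Ctsc the longest such stretch had 10 bases, a length reached by 7.81% of the genes. It stood at bases 837 to 846 of a transcript whose coding part runs from base 70 to 480. Other transcripts of Ctsc were not searched for it. Opposite the guide strand, the longest stretch had 6 bases in Ctsw and 8 in Ctsc. It had 10 bases in Ctsb, a length reached by 10.9% of the genes, and the groups of Ctsb overlapped. These matches are descriptions of sequence, and whether either strand acted on a cathepsin transcript was not tested.

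In the pull-down, none of the 345 peaks of the lnc-SMaRT library and none of the 336 peaks of the LacZ library overlapped any of the 10 listed genes or Ctsc, on either strand. The lists hold called peaks only and come from 1 library each, so they do not give a limit for weaker contacts.

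Many lysosomal genes carry the E-box CACGTG, which is bound by TFEB, TFE3 and MLX and their partners, near their start. RefSeq promoters of GRCm38.p6, 300 bases long and mostly before the start, were found for 6 of the 8 members (Ctsa, with a pair of promoters, Ctsd, Ctsf, Ctsl, Ctso and Ctsz). CACGTG, which reads the same on both strands, stood in promoters of Ctsa, Ctsd, Ctsf and Ctsl, and in none of Ctso, Ctsz or Ctsc. It stood in 7.15% of all 32851 promoters and in 10.1% of the 11276 promoters of genes in the table. The matches are shown with CACGTG in capitals, as the places where the members share a motif.
Ctsa, chr2:164833752-164833775, plus strand: gcaaactgtCACGTGatgcagatg
Ctsa, chr2:164833769-164833792, plus strand: gcagatgctCACGTGaccagagct
Ctsd, chr7:142387911-142387934, minus strand: cccgcgtctCACGTGacccgttga
Ctsd, chr7:142388058-142388077, minus strand: tccccCACGTGacctgtatc
Ctsf, chr19:4855077-4855100, plus strand: cccgtggtcCACGTGcctcgcgta
Ctsl, chr13:64370742-64370765, minus strand: gttagaagcCACGTGctgatctaa

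The matches lay at different distances from the start, from 245 bases before it in Ctsd to 5 bases after it in Ctsa. Of the members with a match, Ctsa, the row of Ctsd and Ctsl had both si-SMaRT values below both controls, and Ctsf overlapped. Of those without, Ctsz overlapped and Ctso lay above. Ctsc, which is not a member, had no match either, and both its si-SMaRT values also lay below both controls. Ctsb and Ctsw had no promoter to search. Whether the motif had a part in these values was not tested. The E-box CAGCTG stood in promoters of Ctsa, Ctsd and Ctso (16.3% of all promoters), CACCTG on either strand in those of Ctsa (20.2%), and TATAAA in none (13.6% of all promoters).

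The other genes of the pathway were read from 7 lists with 135 genes, of which 118 were tested. None passed the test in limma, against 0.505% of all tested rows, and 8 had an unadjusted p under 0.05. With voom on recovered reads 1 gene passed (Serpinb1a), and with the GC trend removed 5 passed, all lower in depleted cells (Serpinb1a, Serpinb6a, Atp6v0b, Atp6v0e2 and Atp6v1d). Among all rows of the same fits, 106 of 11009 passed with voom and 651 of 10933 with the GC trend removed, in either direction. The values below describe these genes beside the cathepsins.

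Of the inhibitors of cathepsins and related proteases, 5 were tested, and all 5 had a log2 fold change below 0, with a median of -0.40. Serpinb1a, a serpin that blocks granule serine proteases, averaged 21.1 ± 4.37 RPKM in the controls and 9.14 ± 2.03 RPKM after depletion (SD, n = 2 each). The log2 fold change was -1.20 (adjusted p = 0.0752 from limma). The groups did not overlap, but the difference did not pass the test. The stefin Cstb had -0.40 and cystatin C (Cst3), the most abundant inhibitor, had -0.24.

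Activation and delivery gave no common direction, with 9 of 16 genes below 0 and a median of -0.04. The asparaginyl protease Lgmn, which processes cathepsin precursors, had a log2 fold change of -0.43, with both depleted libraries below both controls. The mannose 6-phosphate receptors had -0.03 (M6pr) and 0.53 (Igf2r). The sign of this median was not stable, as it was 0.02 with quantile normalization.

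The remaining lysosomal hydrolases had 20 of 34 genes below 0 and a median of -0.08. Of the partners of Ctsa, Glb1, counted in 1 row with Tmppe, averaged 3.75 ± 0.0330 RPKM in the controls and 3.78 ± 0.777 RPKM after depletion (SD, n = 2 each). Neu1 had 6.84 and 6.75 in si-SCR against 5.34 and 3.18 in si-SMaRT, with no overlap and a log2 fold change of -0.71 (adjusted p = 0.470 from limma). At the upper end, Ids, which removes sulfate from heparan and dermatan sulfate, had 0.78. Without si-SMaRT replicate 2 the median of this list was 0.13.

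The list of lysosomal membrane proteins, which also held the soluble protein Npc2, had 13 of 17 genes below 0 and a median of -0.14. Lamp1 and Lamp2, the main glycoproteins of the membrane, had -0.09 and 0.05, and the cholesterol exporters Npc2 and Npc1 lay at opposite ends with -0.56 and 0.58. The vacuolar proton pump, which acidifies the compartment in which cathepsins work, had 14 of 17 subunit genes below 0 and a median of -0.24. Both depleted libraries lay below both controls for 8 of its 17 genes and above them for 0, against 20.4% and 20.2% of all tested rows. The lowest of the pump were Atp6v0e2 with -1.03 and Atp6v0b with -0.82. Counts below and above were 8 and 2 of 18 for autophagy, 3 and 0 of 5 for the inhibitors, and 5 and 1 of 17 for the membrane proteins. They were 6 and 6 of 34 for the hydrolases, 3 and 2 of 16 for activation and delivery, and 1 and 3 of 11 for the TFEB list. Of the 12 muscle markers, 10 lay below and 0 above.

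Of the TFEB family and its regulators, 3 of 11 genes lay below 0, with a median of 0.11. Without si-SMaRT replicate 1, 6 of the 11 lay below 0 and the median was -0.0015. Tfeb, the transcription factor of lysosomal genes, had control values of 1.32 and 1.24 RPKM and depleted values of 1.19 and 0.444. Its log2 fold change of -0.72 came mostly from si-SMaRT 2, whereas Tfe3 had 0.03 and Fnip2 0.80. Autophagy genes had 13 of 18 below 0 and a median of -0.14, from -0.36 for Atg12 to 0.33 for Bnip3.

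**Figure D4:**
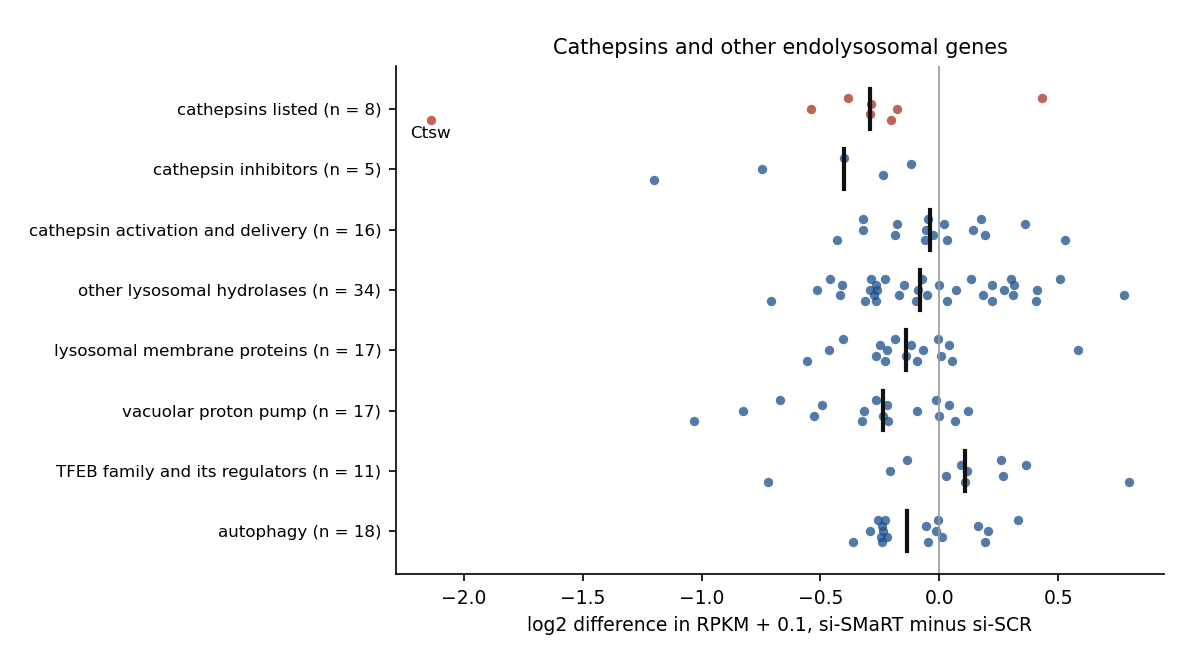
Log2 difference of RPKM + 0.1 between si-SMaRT and si-SCR for each tested gene, by list; each point is 1 gene, red for the 8 cathepsin rows and blue for the 7 other lists, spread vertically for visibility, and the black bar is the median of the list. Ctsw at -2.14 lies outside the span of the other lists, from -1.20 (Serpinb1a) to 0.80 (Fnip2).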

How the data were processed

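RNA of C2C12 cells was sequenced from 2 si-SCR and 2 si-SMaRT samples. The authors trimmed reads with Trimmomatic, removed rRNA and tRNA with Bowtie2, aligned to GRCm38 with TopHat2, counted genes by strand with HTSeq and calculated the deposited RPKM with edgeR on TMM-normalised library sizes, after removing genes with low counts. Tool versions are not given in the sources used here. The deposited pull-down lists give a peak p-value of Piranha, and only peak positions were used. The input library was not analysed here.

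Because RPKM is not a count, the groups were compared on log2(RPKM + 0.1) by the moderated linear model of limma 3.58.1 (R 4.3.3), with a trended prior variance. Rows entered at a mean RPKM of 0.5 or more, and p-values were adjusted after Benjamini and Hochberg over all of them, with calls at 0.05. Whole reads were recovered from the steps of the values of a row (within 0.002 reads) for 11565 of 11642 rows. The effective library sizes from these steps include the TMM scaling of the authors, so they are not the plain depth of each sample. The smallest whole reads of a row are lower limits, and those printed for Ctsw are of this kind. For voom they were multiplied to come nearest to the length of the gene model, where there was one. This length gave whole reads for 5859 rows. For other rows with a gene model, the reads used by voom can lie above or below the true reads. Gene models and GC content came from GENCODE M21 (GRCm38), which is newer than the annotation of the authors. Loess (span 0.3) removed the GC trend.

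The members and all gene lists were chosen with earlier results of these data known. Named genes were the members, Ctsc, the 5 rows nearest to Ctsw, genes fixed by role, and of each list any past the threshold and up to 2 with the highest and 2 with the lowest log2 fold change. Serpinb6a, Atp6v1d and the other genes counted under alternatives were named after their values were seen. The fit and the recovery of reads were tested on simulated data. Figures and sequence searches used Python 3.11.15, pandas 2.3.3 and matplotlib 3.10.9.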

Additional observations from a re-analysis of the deposited data

How the results depend on the processing

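Of 11086 rows, 56 passed the threshold (20 higher and 36 lower). The count was 23 with quantile normalization (6 higher and 17 lower), 651 with the GC trend removed and 106 with voom on recovered reads. With each library left out in turn it lay between 24 (without si-SCR replicate 1) and 2908 (without si-SMaRT replicate 1), where the lone library of a group is assumed to vary like the others. The members past the threshold numbered 0 to 3 over the same 4 fits (0 without si-SCR replicate 1) and 1 under the other settings, which is no support, since Ctsw was chosen by this contrast. With a replicate block the count was 96 (19 higher and 77 lower), and 1 member passed. The labels share the numbers 1 and 2, but the replicate differences of the groups correlated at -0.36 across genes, and 2 pairs cannot show a pairing. With the crossed pairing, chosen after seeing the data, 487 rows passed. Other pseudocounts, filters and no trend in the prior variance gave 48 to 69.

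Among the members' values, that of Ctsl moved from -0.38 to -0.18 with quantile normalization and that of Ctsw from -2.14 to -1.41 with a pseudocount of 1. Ctsf and Ctsz changed sign without si-SMaRT replicate 2, and no other sign changed over 14 settings. Depth limits Ctsw, Ctsf and Ctso most, which rested on the fewest reads.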
